A study of Mus musculus with 37 samples.

Results

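The circadian clock genes described here are the 10 genes Arntl, Clock, Npas2, Per1, Per2, Per3, Nr1d1, Nr1d2, Dbp and Bhlhe41. They were taken by name from the count tables of liver and brain cortex, through the gene identifiers of GENCODE M21, and not by how they changed. All 10 were found among the 55536 genes of each table, and all 10 passed the filter on low counts in both tissues. RNA was sequenced from mice aged 10 months in 37 libraries. The series asks how TMEM106B deficiency and the TDP-43 Q331K change alter gene expression in brain and liver.

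The 4 genotypes are those of the labels. WT carries neither change. TDP-43Q331K is a knock-in mouse whose endogenous TDP-43, an RNA-binding protein encoded by Tardbp, has the Q331K substitution. TMEM106B-/- lacks TMEM106B, a membrane protein of lysosomes. TMEM106B-/-TDP-43Q331K has both and is named the combined genotype here. Liver was sequenced in 4 libraries per genotype. Cortex was sequenced in 5 libraries per genotype, with 6 for TDP-43Q331K. The labels give no time of day of tissue collection and do not state that each library is a separate animal, so the tests set differences against the spread of these libraries, which may be in part technical.

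The RNA of Tmem106b itself did not follow its label. In liver it stood at 96.5 ± 16.3 CPM (counts scaled to library size; SD, n = 4) in WT, at 115.3 ± 9.32 in the libraries labelled TMEM106B-/- and at 135.1 ± 9.15 in those labelled as the combined genotype. In cortex it ran from 183.0 to 193.5 CPM in WT, from 176.8 to 194.1 in the libraries labelled TMEM106B-/- and from 178.6 to 215.7 in the combined genotype. In TDP-43Q331K Tmem106b was at 91.9 ± 21.3 CPM in liver and ran from 170.9 to 190.3 in cortex. It was called higher in the combined than in the TDP-43Q331K livers (log2 change 0.56 ± 0.15, edgeR adjusted p = 0.0497) and in no other comparison. Tardbp was not called in any of the 6 comparisons of either tissue. TMEM106B-/- below therefore means the libraries labelled so, and every direction rests on those labels. Hepatocyte markers summed to between 89758 and 133084 CPM in the livers and to at most 14.1 CPM in the cortices. Neuron markers summed to between 5592 and 6778 CPM in the cortices and to at most 11.5 CPM in the livers.

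The mammalian clock is a loop of transcription and translation that runs in nearly every cell. BMAL1 (the protein of Arntl) pairs with CLOCK or with its relative NPAS2, binds E-boxes and switches on the Per and Cry genes, whose proteins return to block that pair. In a second loop the same pair drives the nuclear receptors REV-ERB alpha and beta (Nr1d1 and Nr1d2), which repress Arntl, Clock and Npas2, and among its outputs is Dbp, a factor that binds D-boxes and acts on Per genes. Bhlhe41 (DEC2) is a further E-box repressor. The RNAs of both limbs rise and fall over each day, Arntl in the opposite phase to Dbp and the Per genes, so their level depends on the hour of collection. In liver, feeding time also sets this clock.

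The promoters of 4 members are printed to show where the elements named above lie in the genes whose levels are compared below. Each stretch ends 11 bases before a RefSeq transcript start and is read 5′ to 3′ on the strand of the gene (sequences from RefSeq, build GRCm38.p6). Capitals mark a match to a motif, and Arntl, the reference gene of the comparisons between libraries, had none. Per3 lies on chr4:151044676-151044915, minus strand, with D-boxes starting 205 and 158 bases before the start. Per1 lies on chr11:69098699-69098938, plus strand, inside an intron of the gene and ahead of one of its internal starts, with an E-box starting 166 bases before that start. Nr1d1 lies on chr11:98775388-98775627, minus strand, with a variant E-box read on its other strand, starting 28 bases before the start. Arntl lies on chr7:113207215-113207454, plus strand. The Per3, Nr1d1 and Arntl stretches lie just outside the annotated gene.
Per3: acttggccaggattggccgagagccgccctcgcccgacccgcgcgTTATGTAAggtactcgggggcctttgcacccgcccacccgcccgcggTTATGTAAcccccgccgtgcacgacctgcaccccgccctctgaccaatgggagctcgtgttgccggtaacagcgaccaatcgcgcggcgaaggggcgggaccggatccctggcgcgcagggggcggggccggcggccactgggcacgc
Per1: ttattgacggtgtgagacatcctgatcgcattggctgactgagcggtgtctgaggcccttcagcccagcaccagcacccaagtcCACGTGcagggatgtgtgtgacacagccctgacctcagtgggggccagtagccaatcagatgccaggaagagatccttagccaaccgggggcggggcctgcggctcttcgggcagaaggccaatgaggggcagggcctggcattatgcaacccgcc
Nr1d1: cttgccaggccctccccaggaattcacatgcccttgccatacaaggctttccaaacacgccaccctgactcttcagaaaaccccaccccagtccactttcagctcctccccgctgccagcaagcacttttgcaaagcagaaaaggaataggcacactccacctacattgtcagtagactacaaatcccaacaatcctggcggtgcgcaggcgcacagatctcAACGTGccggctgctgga
Arntl: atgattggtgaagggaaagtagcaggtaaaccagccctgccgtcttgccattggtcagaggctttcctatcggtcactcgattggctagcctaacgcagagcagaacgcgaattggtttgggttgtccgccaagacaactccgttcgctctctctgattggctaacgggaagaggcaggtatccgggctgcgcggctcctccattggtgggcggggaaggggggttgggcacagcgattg
Motifs were searched on both strands in the 250 bases before each start, for the 9 members with an entry. A gene was counted if any of its starts had a match. The E-box CACGTG was found in Per1, though not at every start, and in Bhlhe41, and 6.86% of all 27025 genes with a promoter entry held it. The variant CACGTT was found in Nr1d1 (4.5% of genes) and the D-box TTATGTAA in Per3 (0.977%). The D-box TTACGTAA (0.118%) and the element of ROR and REV-ERB receptors TAGGTCA (2.55%) were in none of the 9. CACGTG and CACGTT share their first 5 letters and cannot both start at the same base. A match is a description of letters and not of a bound site.

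In WT liver Dbp, the Nr1d genes and the Per genes stood above all 3 activators, and Bhlhe41 lay below Clock. Per kilobase of exon, Dbp was at 53.7 ± 28.0 CPM per kb (SD, n = 4), followed by Nr1d1 at 24.3 ± 16.9, Per2 at 13.97 ± 3.76, Nr1d2 at 11.6 ± 4.49 and Per1 at 10.7 ± 3.12. Each of these 5 lay within the SD of its neighbour. Per3 (4.95 ± 2.33), Clock (1.60 ± 0.342) and Bhlhe41 (0.564 ± 0.334) followed, each apart from the gene above it by more than the SDs. Arntl (0.327 ± 0.205) overlapped Bhlhe41, and Npas2 came last at 0.0218 ± 0.0138 CPM per kb.

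In WT cortex the 10 levels were closer together and Npas2 was no longer low. Nr1d1 led at 32.1 ± 7.42 CPM per kb (SD, n = 5), apart from Nr1d2 at 21.6 ± 1.77. Nr1d1 shares 263 exon bases with Thra on the opposite strand, which averaged 391 CPM in cortex. Its level there may hold reads of Thra, as the strand setting of the counting is not given. Per1 (18.8 ± 4.67), Dbp (17.9 ± 3.93) and Npas2 (13.5 ± 0.726) each overlapped the gene above. Clock (11.5 ± 0.456) lay below Npas2 by more than the SDs, and Per3 (11.5 ± 1.73), Per2 (11.4 ± 3.14), Bhlhe41 (8.67 ± 1.29) and Arntl (6.81 ± 0.693) each overlapped their upper neighbour. Npas2 in cortex thus sat between Dbp and Clock, while in liver it stood below all 9 others.

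Liver libraries of the same genotype differed widely in these genes. The pooled SD of log2 CPM within genotypes was 0.92 for Nr1d1, 0.90 for Npas2, 0.75 for Arntl and 0.67 for Dbp, against a median of 0.28 over the 16710 genes tested in liver. For Nr1d1, 97.0% of genes had a smaller SD. The other members lay between 0.55 for Bhlhe41 and 0.23 for Clock, and Clock alone fell below the median of all genes. Over the 16 livers the highest library exceeded the lowest 9.86-fold for Nr1d1, 8.17-fold for Arntl, 6.23-fold for Dbp and 2.30-fold for Clock. The widest range was that of Npas2, 85.4-fold, from 0.0141 to 1.20 CPM, a gene of very low counts in liver.

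Cortex libraries of the same genotype were closer to each other. Per1 had the largest SD there, 0.35, then Per2 with 0.30 and Dbp with 0.29, against a median of 0.17 over 21248 genes. Clock had the smallest, 0.067, and 9.68% of genes had a smaller one. The largest ratio of highest to lowest among the 21 cortices was 2.79 for Per1, and the ratio was 1.56 for Arntl and 2.01 for Dbp. Bulk RNA cannot tell fewer cells of a type from less RNA per cell, in these values and in all that follow.

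**Figure D1:**
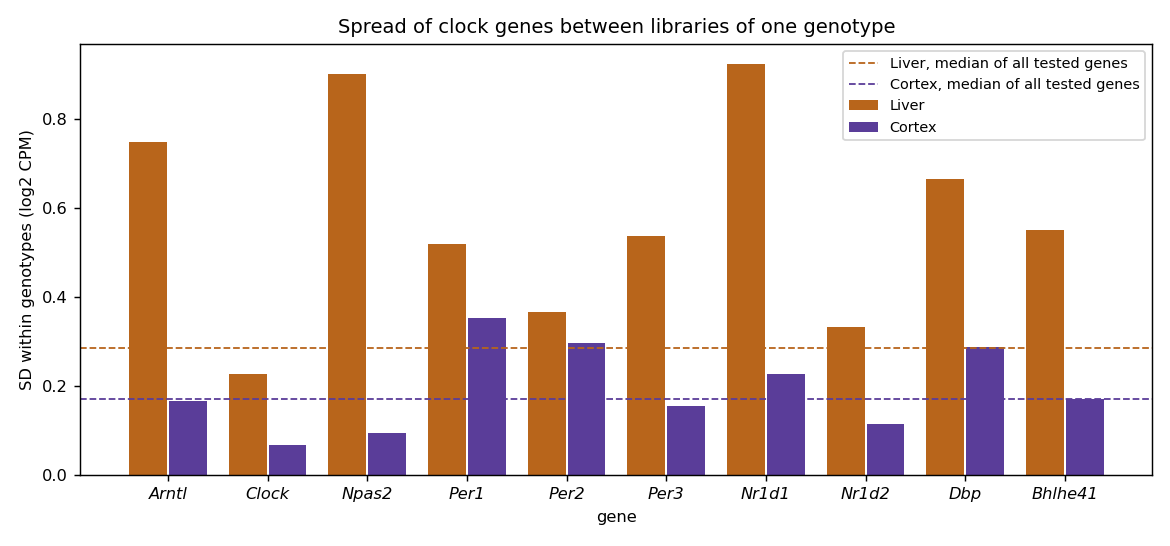
Spread of each clock gene between libraries of the same genotype (y axis, pooled SD of log2 CPM; bars, liver in brown and cortex in purple; dashed lines, the median of all tested genes in each tissue). The liver bar is the higher of the pair for all 10 genes, from 0.23 for Clock to 0.92 for Nr1d1.

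Among the activators in liver, Arntl, which all forms of the loop share, was at 2.21, 1.96, 1.02 and 4.64 CPM in WT replicates 1 to 4, at 0.908, 1.49, 0.983 and 1.78 in TDP-43Q331K, at 0.568, 1.24, 1.71 and 1.08 in TMEM106B-/- and at 3.49, 4.37, 1.59 and 1.12 in the combined genotype. The highest values were WT replicate 4 and the combined genotype's replicates 2 and 1, the lowest was TMEM106B-/- replicate 1, and the groups overlapped. Its log2 fold changes against WT were -0.93 ± 0.47 (SE) for TDP-43Q331K, -1.09 ± 0.48 for TMEM106B-/- and 0.10 ± 0.46 for the combined genotype. The adjusted p-values (edgeR quasi-likelihood test, Benjamini-Hochberg over all genes) were 0.373, 0.290 and 0.928, so none was called at the threshold of 0.05.

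Clock, the usual partner of BMAL1, was at 22.4, 27.6, 16.1 and 21.6 CPM in WT livers, at 16.8, 15.3, 15.1 and 16.2 in TDP-43Q331K, at 11.96, 14.8, 15.8 and 16.3 in TMEM106B-/- and at 22.8, 24.7, 18.4 and 17.4 in the combined genotype. All 4 combined livers lay above all 8 livers of the single genotypes, and WT replicate 3 lay among the latter. The log2 change of Clock against WT was -0.57 ± 0.15 in TMEM106B-/- (edgeR adjusted p = 0.0796) and -0.47 ± 0.15 in TDP-43Q331K (adjusted p = 0.185), neither of which was called. Without WT replicate 3 the first of these was called, at an adjusted p of 0.0240. The interaction, which is the effect of the TMEM106B-/- label on the TDP-43Q331K background minus its effect on the WT background, was called for Clock, at 0.96 ± 0.21 (edgeR adjusted p = 0.0464). Clock was the only one of 10 members called in that comparison, where 0.688% of all genes were. The call was narrow: it was lost without any 1 of 13 of the 16 livers, all but WT replicate 3 and replicate 4 of TMEM106B-/- and of the combined genotype, with values from 0.83 to 1.02 and adjusted p from 0.0572 to 0.113. The smallest of those values came without WT replicate 2.

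Npas2, the relative of Clock that can take its place, rose in livers of the combined genotype from a very low level. The WT livers held 8, 9, 7 and 1 counts of it, TDP-43Q331K livers 4, 3, 12 and 8, TMEM106B-/- livers 18, 7, 16 and 12, and combined livers 52, 80, 30 and 9. In CPM the combined livers stood at 0.806, 1.20, 0.468 and 0.155, against 0.138, 0.167, 0.0979 and 0.0141 in WT. Replicates 1 to 3 of the combined genotype lay above all other livers, and replicate 4 lay inside the WT range. The change against WT was 6.43-fold, 2.68 ± 0.64 on the log2 scale (edgeR adjusted p = 0.0184), and against TDP-43Q331K 5.81-fold, 2.54 ± 0.64 (adjusted p = 0.0337). Against TMEM106B-/- it was 1.57 ± 0.59 (adjusted p = 0.243) and not called.

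The first of these calls was lost without WT replicate 3 (2.67, adjusted p = 0.0512) or without the combined genotype's replicate 2 (2.22, adjusted p = 0.0713). The second, against TDP-43Q331K, was lost without TDP-43Q331K replicate 1 (2.35, adjusted p = 0.0851), 2 (2.29, 0.0896) or 4 (2.58, 0.0905), without combined replicate 1 (2.43, 0.0767) or 2 (2.07, 0.132), with replicate number as a block (2.32, 0.0595), and without 3 livers high in acute phase transcripts (2.43, 0.0639).

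Among the Per genes, Per2, a repressor of the loop, fell in livers of the combined genotype. It stood at 26.9, 38.6, 53.3 and 51.2 CPM there, against 62.1, 64.6, 94.1 and 106.6 in WT, 56.4, 85.1, 96.2 and 97.9 in TDP-43Q331K and 78.4, 59.2, 68.4 and 59.1 in TMEM106B-/-. Every combined liver lay below every other liver, the nearest being TDP-43Q331K replicate 1. Per2 was 1.93-fold lower than in WT (-0.95 ± 0.23, edgeR adjusted p = 0.0197) and 1.97-fold lower than in TDP-43Q331K (-0.98 ± 0.23, adjusted p = 0.0233). Against TMEM106B-/- it was at -0.64 ± 0.23 (adjusted p = 0.215), which was not called although the groups did not overlap. Npas2 and Per2 were the 2 members of 10 called in each of the comparisons of the combined genotype with WT and with TDP-43Q331K, where 7.04% and 3.94% of all genes were called. Those comparisons share the combined libraries.

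The Per2 call against WT was lost without WT replicate 3 (-0.87, adjusted p = 0.0580), WT replicate 4 (-0.79, 0.0559) or combined replicate 2 (-0.89, 0.0634), and when only the compared groups were fitted (-0.94, 0.0577). The call against TDP-43Q331K was lost without TDP-43Q331K replicate 2 (-0.98, adjusted p = 0.0517), 3 (-0.91, 0.0748) or 4 (-0.90, 0.0754), or without combined replicate 1 (-0.81, 0.0604) or 2 (-0.94, 0.0820).

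Per1, which responds fast to hormones and light, showed no difference that was called. It averaged 60.3 ± 17.6 CPM (SD, n = 4) in WT, 60.4 ± 12.9 in TDP-43Q331K, 65.0 ± 19.4 in TMEM106B-/- and 55.3 ± 22.6 in livers with both changes. The lowest of all livers was the combined genotype's replicate 2, at 22.5 CPM, and its other 3 livers lay between 58.1 and 71.7. The 95% interval of the log2 difference between the combined genotype and WT ran from -0.80 to 0.55.

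Per3, a Per gene with a weaker part in the loop, was at 44.7, 24.3, 78.2 and 43.2 CPM in WT, at 63.0, 56.8, 80.5 and 48.2 in TDP-43Q331K, at 100.5, 99.9, 67.8 and 43.3 in TMEM106B-/- and at 22.6, 28.2, 35.0 and 51.4 in the combined genotype. The 3 lowest values occurred in WT replicate 2 and in combined replicates 1 and 2. The change between the combined genotype and TMEM106B-/- was -1.18 ± 0.35 (edgeR adjusted p = 0.134), and that between the combined genotype and TDP-43Q331K was -0.86 ± 0.35 (adjusted p = 0.181). Neither was called by edgeR, and the groups overlapped in both. Per3 lies wholly inside Camta1 on the same strand but shares none of its exon bases.

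Of the other repressors in liver, Nr1d1 was at 107.6, 128.1, 48.1 and 15.4 CPM in WT, at 101.9, 44.1, 100.1 and 36.7 in TDP-43Q331K, at 94.2, 49.7, 129.4 and 46.9 in TMEM106B-/- and at 130.6, 136.9, 151.9 and 61.9 in the combined genotype. Each genotype held both high and low livers, and WT held the lowest of all, replicate 4. The combined genotype was at 0.69 ± 0.58 against WT (edgeR adjusted p = 0.529), with a 95% interval from -0.55 to 1.93. Its exons share 263 bases (8.55%) with Thra on the opposite strand, and Thra itself rose by 0.51 ± 0.14 in that comparison (adjusted p = 0.0342). Reads in the shared bases cannot be assigned without the strand setting of the counting. Thra averaged 12.3 CPM in WT livers and 17.5 in combined livers, while Nr1d1 averaged 74.8 and 120.3 CPM. The part of Thra reads in the Nr1d1 values was not tested. Nr1d2, the second REV-ERB, was steadier, at 62.5 ± 24.3 CPM in WT, 63.6 ± 9.73 in TDP-43Q331K, 62.7 ± 5.52 in TMEM106B-/- and 54.4 ± 1.15 in livers with both changes (SD, n = 4 each). Its log2 change against WT was between -0.20 and 0.02 in the 3 genotypes, and none was called.

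Bhlhe41 fell in the combined genotype relative to TMEM106B-/-. It was at 1.95, 2.03, 2.28 and 1.81 CPM in the combined livers, at 5.11, 6.60, 8.07 and 5.99 in TMEM106B-/-, at 5.88, 3.09, 4.30 and 2.62 in TDP-43Q331K, and at 6.30, 2.13, 5.06 and 1.68 in WT. The combined and TMEM106B-/- livers were far apart, the combined livers also lay below all TDP-43Q331K livers, and the WT livers split into a pair beside each. The difference between combined and TMEM106B-/- was 3.19-fold, -1.67 ± 0.35 (edgeR adjusted p = 0.0298). It was the only one of 10 members called in that comparison, where 1.04% of all genes were. The change against WT was -0.91 ± 0.35 (adjusted p = 0.128), and without WT replicate 4 it became -1.16 (adjusted p = 0.0398). Bhlhe41 shares 1280 exon bases (19.0%) with Gm43909 on the other strand, a gene at 0.0342 CPM on average in liver.

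Although its size hardly moved, the Bhlhe41 call was lost without TMEM106B-/- replicate 2 (-1.66, adjusted p = 0.0651), 3 (-1.55, 0.0649) or 4 (-1.71, 0.0520), and without combined replicate 1 (-1.66, 0.0811), 2 (-1.68, 0.101), 3 (-1.74, 0.0808) or 4 (-1.63, 0.0796). It was also lost without a filter on low counts (-1.68, 0.0558) and without the 3 livers high in acute phase transcripts (-1.69, 0.0689).

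The output Dbp was, in liver, at 227.9, 125.0, 231.0 and 59.0 CPM in WT, at 341.2, 189.3, 368.0 and 152.1 in TDP-43Q331K, at 325.4, 285.4, 288.9 and 152.0 in TMEM106B-/- and at 123.4, 137.1, 196.1 and 271.2 in the combined genotype. All 4 groups overlapped, and WT replicate 4 was the lowest of the 16. The mean of each single genotype was 1.63- to 1.64-fold above WT (0.71 ± 0.42 for both), with an adjusted p of 0.448 in TDP-43Q331K and 0.450 in TMEM106B-/-. Dbp shares 539 exon bases (18.0%) with Sphk2 on the opposite strand, which averaged 48.4 CPM in liver.

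**Figure D2:**
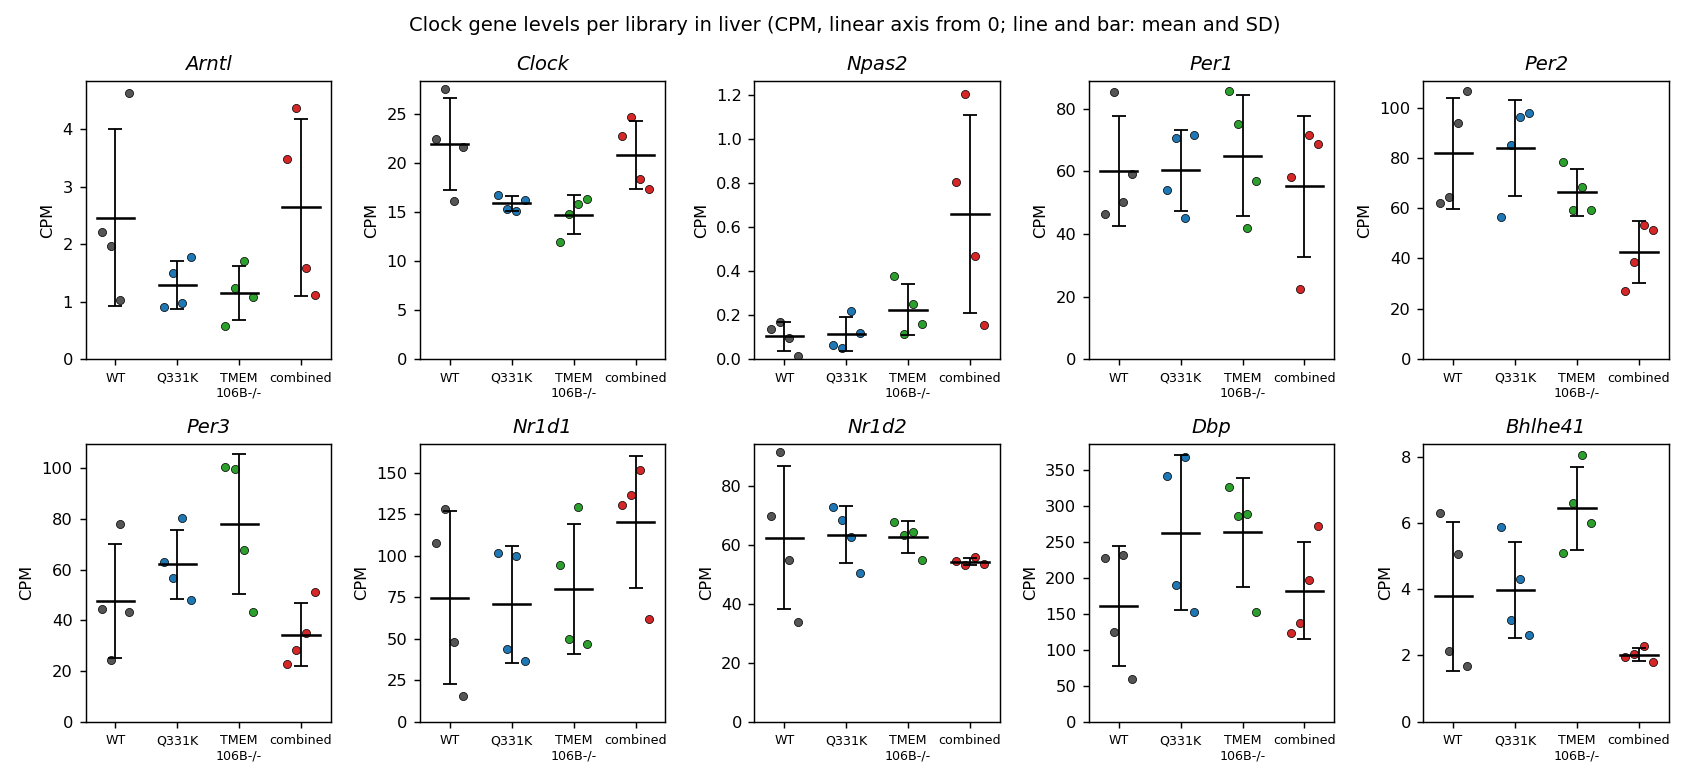
Level of each clock gene in the 16 livers (y axis, CPM from 0; x axis, genotype as labelled; points, libraries; line and bar, mean and SD of 4 libraries). The 4 combined livers lie below all others for Per2, from 26.9 to 53.3 CPM, and 3 of the 4 lie above all others for Npas2.

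In liver of the single genotypes no member was called. The comparison of TMEM106B-/- with WT called 0 of 10 members beside 1.05% of all genes, and 3 members (Arntl, Clock and Bhlhe41) had an unadjusted p under 0.05. TDP-43Q331K against WT called 0 of 10 beside 0.263% of all genes, and 1 member, Clock, had an unadjusted p under 0.05. DESeq2 called Clock lower in the first and no member in the second. The median log2 change of the 10 members against WT was 0.10 for TMEM106B-/-, 0.03 for TDP-43Q331K and -0.10 for the combined genotype, beside 0.00, -0.01 and -0.03 over all genes tested.

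**Figure D3:**
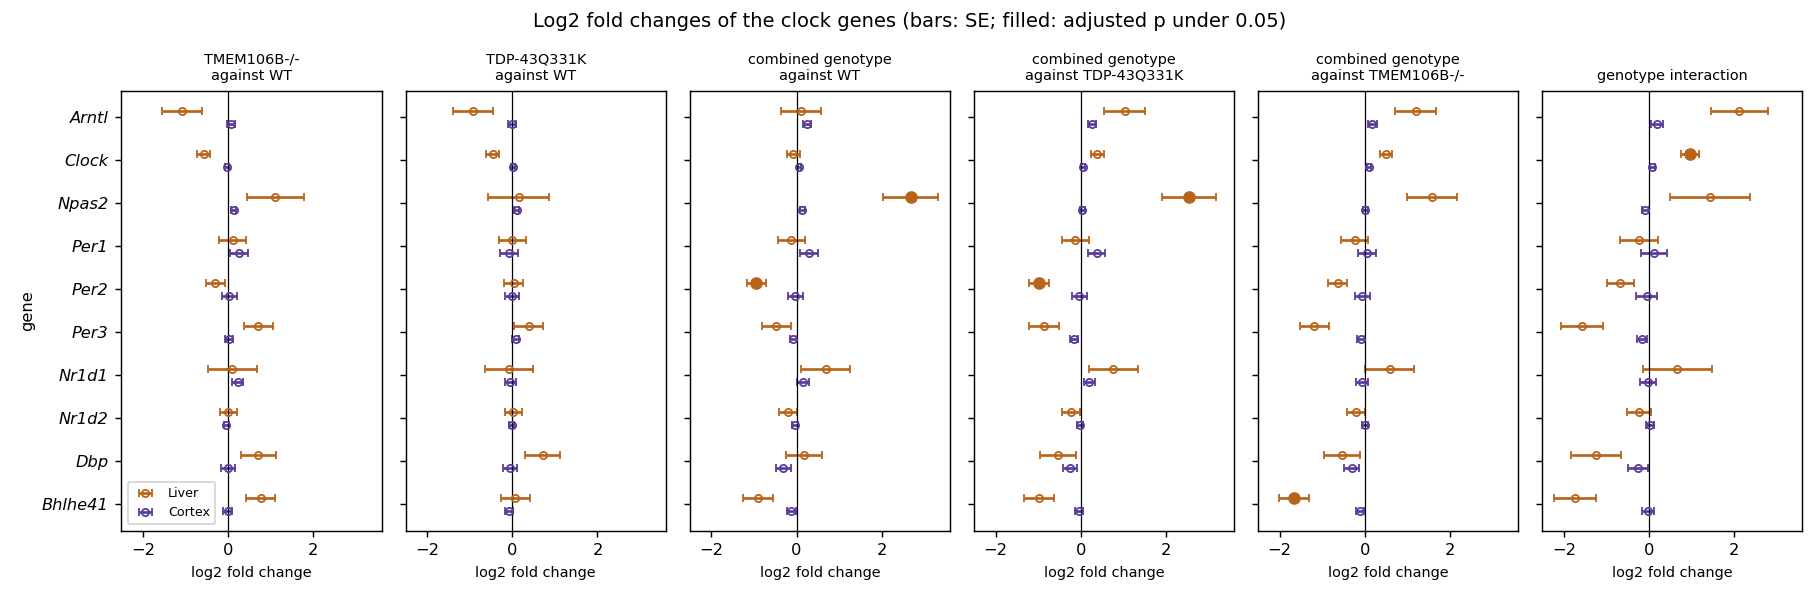
Log2 fold changes of the 10 clock genes in the 6 comparisons (x axis; one panel per comparison), liver in brown and cortex in purple, with bars of 1 SE and filled points for an adjusted p under 0.05. Filled points occur in liver alone, for Npas2 and Per2 in the combined genotype against WT and against TDP-43Q331K, for Bhlhe41 against TMEM106B-/- and for Clock in the interaction.

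In cortex no member was called in any of the 6 comparisons. The combined genotype against WT called 0 of 10 beside 4.89% of all genes, and TMEM106B-/- against WT called 0 of 10 beside 5.16%. The combined genotype against TDP-43Q331K called 0 of 10 beside 1.4%, and the other 3 comparisons called 0% of all genes. Unadjusted p-values under 0.05 were found for 2 members (Arntl and Npas2), 1 member (Npas2), 1 member (Arntl) and, in the combined genotype against TMEM106B-/-, 1 member (Clock). TDP-43Q331K against WT and the interaction had 0 such members. DESeq2 also called 0 members in each of the 6.

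Arntl in cortex was at 49.9, 47.7, 50.1, 48.1 and 60.4 CPM in WT and at 65.8, 68.8, 56.6, 57.9 and 55.1 in the combined genotype. In TMEM106B-/- it was at 44.0, 49.4, 51.1, 58.7 and 65.0, and the 6 TDP-43Q331K cortices ran from 45.4 to 60.6. The 5 combined cortices lay above 4 of the 5 WT cortices, and WT replicate 5 lay among them. The difference was 0.25 ± 0.10 on the log2 scale (edgeR adjusted p = 0.144), with a 95% interval from 0.04 to 0.45.

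Dbp in cortex was at 59.9, 63.2, 56.0, 55.3 and 33.3 CPM in WT and at 34.8, 40.2, 50.6, 42.9 and 47.2 in the combined genotype. It was at 67.0, 62.4, 46.1, 40.6 and 51.5 in TMEM106B-/- and ran from 43.4 to 65.6 in TDP-43Q331K. WT replicate 5, the WT cortex highest in Arntl, was the lowest of all 21 in Dbp. The log2 difference between the combined genotype and WT was -0.31 ± 0.17 (edgeR adjusted p = 0.309).

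Npas2 in cortex was at 69.1, 63.6, 67.4, 60.2 and 63.7 CPM in WT and at 74.5, 63.3, 75.1, 73.1 and 70.9 in the combined genotype, 0.14 ± 0.06 higher on the log2 scale (edgeR adjusted p = 0.151). Without 4 cortices with extreme tissue markers it was called at 0.20 (adjusted p = 0.0476). Per2 in cortex averaged 67.0 ± 18.4 CPM in WT and 65.6 ± 15.9 in the combined genotype (SD, n = 5 each), a log2 difference of -0.03 ± 0.18 with a 95% interval from -0.40 to 0.34. Clock averaged 158.1 ± 6.26 and 166.0 ± 7.82 CPM, and Bhlhe41 58.3 ± 8.64 and 53.7 ± 5.20 CPM. Per1 (106.1 ± 26.3 and 130.4 ± 29.2 CPM), Per3 (110.6 ± 16.6 and 105.2 ± 11.9), Nr1d1 (98.7 ± 22.8 and 109.6 ± 13.8) and Nr1d2 (116.8 ± 9.57 and 114.0 ± 8.24) overlapped between the same groups.

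Oligodendrocyte markers were lower than in WT in both cortex groups labelled TMEM106B-/-. All 4 of 4 fell in the TMEM106B-/- and in the combined cortices against WT, with summed levels of 1824 to 2128 CPM in WT, 1238 to 2011 in TDP-43Q331K, 620.2 to 905 in TMEM106B-/- and 695 to 1637 in the combined genotype, and none at 0. In the combined genotype against TDP-43Q331K edgeR called 0 of 4, with 4 at an unadjusted p under 0.05 and a median of -0.73. Meningeal and choroid plexus markers rose for 2 and 1 of 5 tested (7 listed) in TMEM106B-/- and the combined genotype against WT, and for 0 in the combined genotype against TDP-43Q331K. Their summed level was 7.68 to 28.3 CPM in WT, 17.8 to 37.0 in TDP-43Q331K, 17.3 to 57.6 in TMEM106B-/- and 26.0 to 52.6 in the combined genotype, with 1 of them at 0 in a library of each genotype other than TMEM106B-/-. Upper cortical layer markers rose for 2 of 5 in TMEM106B-/- against WT, and for 1 in the combined genotype against WT and against TDP-43Q331K. Astrocyte markers rose for 1 and 2 of 5, and microglia markers for 1 and 1 of 6, in TMEM106B-/- and the combined genotype against WT. In the latter comparison 1 of 6 neuron markers also rose. Of all genes, 5.16% were called in TMEM106B-/- against WT, 4.89% in the combined genotype against WT and 1.4% in the combined genotype against TDP-43Q331K. The part of all the markers above in the cortex values was not tested.

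**Figure D4:**
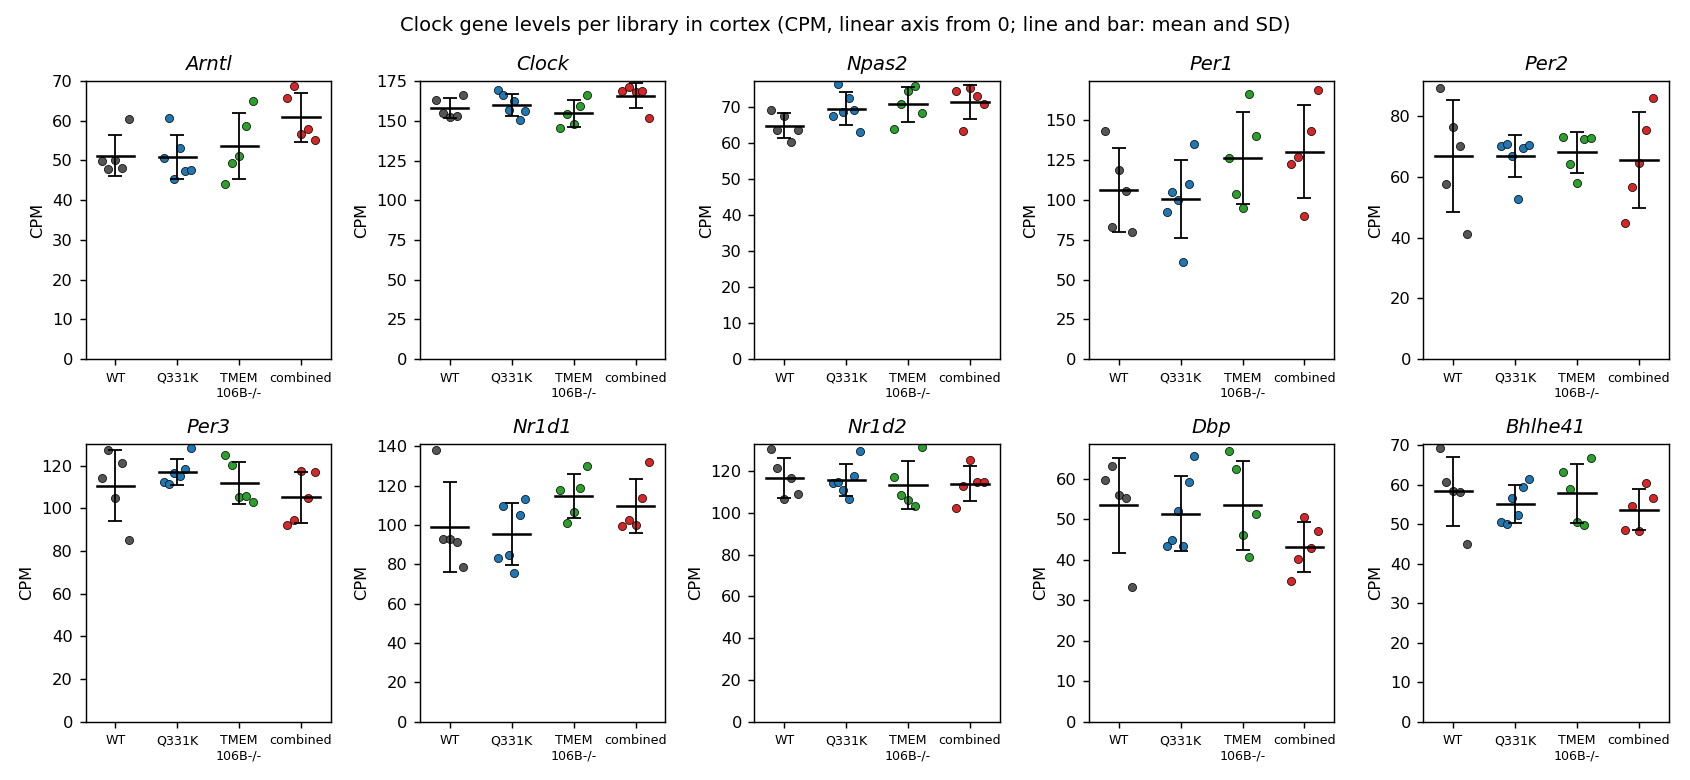
Level of each clock gene in the 21 cortices (y axis, CPM from 0; x axis, genotype as labelled; points, libraries; line and bar, mean and SD). All groups overlap for every gene, and the 5 combined cortices reach from 55.1 to 68.8 CPM for Arntl.

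Liver and cortex were compared directly in a fit of all 37 libraries. The change of Npas2 in the combined genotype against WT was larger in liver than in cortex by 2.61 ± 0.46 on the log2 scale (edgeR adjusted p = 0.000423), and this was called under all 41 alternatives, with values from 2.15 to 2.92. The fit takes a single spread per gene for both tissues, while the SD of Npas2 within genotypes was 0.90 in liver and 0.093 in cortex. The SE of the difference thus lies below that of the liver change alone (0.64), so the p-value is too small. All 41 alternatives keep that single spread and do not test this. The Per2 change differed by -0.92 ± 0.29 (adjusted p = 0.0498), and 31 of 41 alternatives lost that call. These were the 2 members of 10 called, where 6.66% of all genes were. The Clock change in TMEM106B-/- against WT differed by -0.53 ± 0.14 (adjusted p = 0.0358), the only one of 10 called, beside 2.86% of all genes. Here too the SE lay below that of the liver change alone, 0.144 against 0.151. For TDP-43Q331K against WT 0 of 10 were called beside 0.517%, with 2 members, Arntl and Clock, at an unadjusted p under 0.05, and DESeq2 called Clock.

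The Per2 difference between tissues fell out of the call at -0.74 (adjusted p = 0.126) without liver WT replicate 4, at -0.76 (0.115) without liver combined replicate 1, at -0.84 (0.101) without liver WT replicate 3 and at -0.87 (0.0954) without liver combined replicate 2. In cortex the values were -0.79 (0.0893) without WT replicate 5, -0.80 (0.0946) and -0.86 (0.0870) without combined replicates 5 and 4, and -0.87 (0.0857) without WT replicate 2. Leaving out any 1 of 20 further libraries moved the adjusted p to between 0.0508 and 0.0665. These were liver TDP-43Q331K replicates 2 and 4, all 4 TMEM106B-/- livers, cortex WT replicates 3 and 4, every TDP-43Q331K cortex but replicate 4, all 5 TMEM106B-/- cortices and cortex combined replicates 2 and 3. The Clock difference was lost without liver WT replicate 2 (-0.43, 0.114) or 4 (-0.52, 0.0557), without liver TMEM106B-/- replicate 1 (-0.43, 0.0847) or 2 (-0.53, 0.0618), without cortex WT replicate 2, 3 or 4 (-0.52, up to 0.0622) and without cortex TMEM106B-/- replicate 2, 4 or 5 (-0.53 to -0.50, up to 0.0680).

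Across libraries of both tissues Clock ran with Arntl, and Dbp and Per3 ran against it, while the other members passed no test of r. Log2 CPM of each other member was set against that of Arntl over the 16 livers and the 21 cortices, 18 pairs in all, with two-sided permutation tests of 100000 resamples and Benjamini-Hochberg adjustment over the 18. Clock ran with Arntl in liver (Pearson r = 0.797, adjusted permutation p = 0.00072; Spearman rho = 0.712, 0.00765) and in cortex (r = 0.746, 0.00072; rho = 0.692, 0.00338). Dbp ran against it in liver (r = -0.796, 0.000936; rho = -0.788, 0.00312) and in cortex (r = -0.763, 0.00072; rho = -0.821, 0.00045). Per3 also ran against it in liver (r = -0.726, 0.00444; rho = -0.756, 0.00392) and in cortex (r = -0.772, 0.00054; rho = -0.799, 0.00045). The raw permutation p of r lay between 3e-05 and 0.00148 for these 6 pairs.

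These 6 relations kept their sign without the libraries most extreme in Arntl. Without the 2 livers farthest from the median of Arntl, WT replicate 4 and the combined genotype's replicate 2, r was 0.765 for Clock, -0.690 for Dbp and -0.766 for Per3. Without the 2 farthest cortices, combined replicates 2 and 1, r was 0.677, -0.702 and -0.675. With the mean of each genotype subtracted, r was 0.682 for Clock, -0.744 for Dbp and -0.573 for Per3 in liver, and 0.772, -0.729 and -0.774 in cortex. With these means subtracted, the adjusted permutation p of r stayed below 0.05 for all 6 but Per3 in liver (0.0635). By rho, Clock in liver was the exception (rho = 0.588, adjusted permutation p = 0.0535).

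The remaining 12 pairs had an adjusted permutation p of r above 0.05. Bhlhe41 came nearest in liver (r = -0.576, adjusted permutation p = 0.0526; rho = -0.462, 0.147), and in cortex its rho passed (rho = -0.522, 0.0427) while its r did not (r = -0.414, 0.139). Nr1d1 was at r = -0.0765 in liver and 0.130 in cortex, and Npas2 at 0.172 and 0.335. The 2 values in each pair come from the same library and share its depth and scaling.

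**Figure D5:**
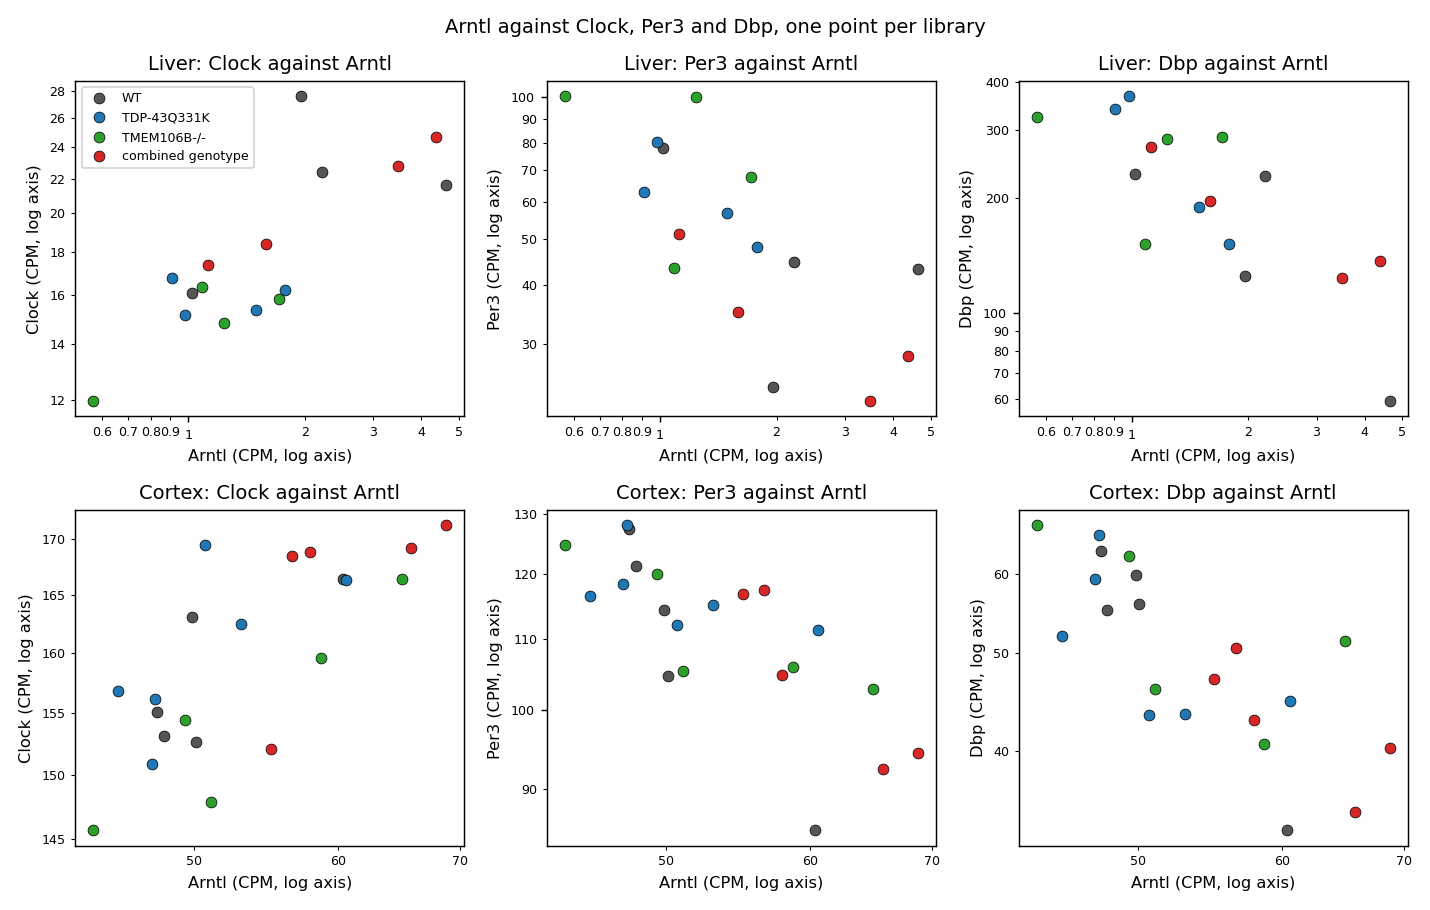
Clock, Per3 and Dbp (y axes, CPM, log) against Arntl (x axes, CPM, log), liver above and cortex below, with 1 point per library coloured by genotype. In both tissues the points climb for Clock and descend for Per3 and Dbp, and WT replicate 4 is the liver point at the right with the lowest Dbp, 59.0 CPM.

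The livers at the ends of the Arntl range differed in the other members. WT replicate 4, the liver highest in Arntl (4.64 CPM), was the lowest of 16 in Dbp (59.0), Nr1d1 (15.4), Nr1d2 (34.0) and Npas2 (0.0141), and the highest in Per2 (106.6). TMEM106B-/- replicate 1, the liver lowest in Arntl (0.568), was the lowest in Clock (11.96) and the highest in Per3 (100.5) and Per1 (85.8). The combined genotype's replicates 1 and 2, next to WT replicate 4 in Arntl (3.49 and 4.37), were low in Dbp and Per3 but high in Nr1d1 (130.6 and 136.9) and held the most Npas2. The 3 livers highest in Arntl thus lay at opposite ends of the range of Nr1d1 and Npas2.

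The further genes of the clock were counted from lists. Of 7 other core loop genes (among them the repressors Cry1 and Cry2 and the activator Rora) 6 were tested in liver and 7 in cortex, and 0 were called in any of the 6 comparisons of either tissue. Unadjusted p-values under 0.05 were found for 0 to 2 of them per comparison. The 3 further D-box genes (Tef, Hlf and Nfil3) had 0 calls throughout, with 0 to 3 at an unadjusted p under 0.05. Of 14 kinases, ligases and modifiers of clock proteins 0 were called in liver. In cortex 1 of the 14 was called, in TMEM106B-/- against WT, where 5.16% of all genes were. This was Csnk1d, a kinase of PER proteins, which rose by 0.17 ± 0.04 (edgeR adjusted p = 0.0105).

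Of 17 clock-controlled output genes tested in liver, 1 rose and 2 fell in the combined genotype against WT, where 7.04% of all genes were called. Cdkn1a, an inhibitor of the cell cycle, rose by 1.98 ± 0.49 (adjusted p = 0.0241), Lonrf3 was at -1.43 ± 0.38 (0.0328) and Tspan4, a tetraspanin, at -1.08 ± 0.30 (0.0403), all by edgeR. Against TDP-43Q331K, where 3.94% of all genes were called, Cdkn1a rose by 2.27 ± 0.49 (adjusted p = 0.0186) and Lonrf3 fell by 1.60 ± 0.39 (0.0272). The median of the 17 against WT was -0.07, beside -0.03 for all genes. In cortex 0 of 13 tested were called in any comparison.

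Some genes that follow feeding and fasting were called in the liver comparisons that called Npas2 and Per2. In the combined genotype against WT 4 of 13 rose and 0 fell, where 7.04% of all genes were called, with a median of 0.81 beside -0.03 for all genes. The 13 hold both genes raised by fasting and genes raised by feeding, so neither their median nor their sum gives a feeding state. Pdk4, which limits glucose oxidation, rose by 1.53 ± 0.31 (edgeR adjusted p = 0.0064), and Ppargc1a, a coactivator of fasting genes, by 1.13 ± 0.26 (0.0148). Fgf21, a fasting hormone, and Pnpla3, a lipid droplet protein induced by feeding, rose by 1.99 ± 0.56 (0.0459) and 3.46 ± 0.97 (0.0484). The summed level of the 13 genes was 3439 to 5147 CPM in WT, 3237 to 5966 in TDP-43Q331K, 3981 to 6916 in TMEM106B-/- and 5758 to 7639.7 in the combined genotype, with none at 0. Against TDP-43Q331K 2 rose (Pdk4 and Fgf21) beside 3.94% of all genes called, and against TMEM106B-/- 1 rose (Pdk4) beside 1.04%. Their part in the Npas2, Per2 and Bhlhe41 results was not tested.

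Glucocorticoid targets, which can shift clocks through Per1 and Per2, gave 1 call of 8 in the combined livers against WT, beside 7.04% of all genes. This was Ddit4, which rose by 1.58 ± 0.43 (edgeR adjusted p = 0.0400). The other 5 liver comparisons and all 6 in cortex called 0 of 8. Of 10 activity-induced genes in cortex, Egr2, an immediate early gene, rose in TMEM106B-/- against WT (1.56 ± 0.45, adjusted p = 0.0461), in the combined genotype against WT (1.83 ± 0.44, 0.0246) and against TDP-43Q331K (1.88 ± 0.42, 0.0350). The other 9 were not called in any comparison. Of all genes, 5.16%, 4.89% and 1.4% were called in the comparisons where Egr2 rose, in the same order.

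Acute phase transcripts set 3 livers apart (combined replicate 1, WT replicate 2 and TMEM106B-/- replicate 4), with none of the 8 listed genes called in any comparison. Their summed level ran from 6639 to 17391 CPM in WT, 4872 to 6324 in TDP-43Q331K, 4510 to 16347 in TMEM106B-/- and 5123 to 15640 in the combined genotype. In the combined livers against WT 3 of 6 stellate cell and fibroblast markers rose (Col1a1, Col1a2 and Col3a1) and 2 of 5 hepatocyte markers fell (Apoa1 and Serpina1c). Against TDP-43Q331K 2 of 6 stellate markers (Col1a2 and Col3a1) and 1 of 5 endothelial markers (Pecam1) rose, and the same 2 hepatocyte markers fell. Against TMEM106B-/- 1 hepatocyte marker fell (Apoa1), and 0 stellate and 0 endothelial markers were called. Of all genes, 7.04%, 3.94% and 1.04% were called in the comparisons with WT, TDP-43Q331K and TMEM106B-/-. The stellate markers summed to 111.2 to 169.4 CPM in WT, 118.0 to 146.8 in TDP-43Q331K, 146.6 to 157.8 in TMEM106B-/- and 161.7 to 195.0 in the combined genotype, with none at 0. The part of these markers in the liver results was not tested, beyond the values without the 3 livers given above.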

How the data were processed

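RNA sequencing counts of 16 livers and 21 cortices were used. Per the labels' protocols, the library kit keeps strand. The deposited values are whole-number raw counts per gene from the authors, with no normalization. The submitters' processing notes name Trim Galore, cutadapt, FastQC, GRCm38 and mm10. How reads were aligned and counted, on which strand and with which versions is not given in the sources used. All 55536 gene identifiers of each table matched GENCODE M21. For cortex, 1 column matched no labelled sample and was left out.

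Liver libraries held 50.5 to 74.1 M counts and cortex libraries 28.8 to 46.3 M. The labels gave the groups. For each tissue 1 model held the 4 genotypes, in edgeR 4.0.16 (R 4.3.3, TMM scaling, robust quasi-likelihood test). With filterByExpr at a minimum count of 10 and a minimum total of 15, 16710 liver and 21248 cortex genes were tested, with 12 and 17 residual degrees of freedom. P-values were two-sided and adjusted by Benjamini-Hochberg over all genes, and a gene under 0.05 was called. Liver and cortex changes were compared in a joint fit of 23384 genes, with a single spread per gene for both tissues. CPM are scaled by TMM and log2 CPM carry a prior count of 2. Replicates varied more in liver (common biological coefficient of variation 0.235) than in cortex (0.103). On simulated data for the combined genotype against WT, changes were put into a sample of well-counted genes among the 16710 of liver and 21248 of cortex. Of these, 29% of 1.5-fold and 97% of 3-fold changes were recovered in liver, and 77% and 99% in cortex. Recovery was not measured for genes of low count, such as Npas2 in liver. Nor was it measured separately for genes as variable within genotypes as Nr1d1, Arntl and Dbp in liver.

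The text names all 10 members, Tmem106b and Tardbp as the targeted genes, and up to 6 called genes of the other lists per comparison. It also names, per tissue, the 5 non-member genes most like Arntl and the 5 most like Dbp. Thra is named beside Nr1d1 because their exons overlap, and was chosen after its values were seen. The members and lists were chosen with earlier results of these data known. Some genes of the lists are not reported here, and counts and sums over the lists leave them out. The alternatives were DESeq2 1.42.0, a replicate block by number, a fit without the groups not compared, RLE size factors, all genes unfiltered, library totals without TMM (joint fit), each library left out in turn, and 2 alternatives chosen after seeing the data, which leave out 3 livers high in acute phase transcripts and 4 cortices with extreme tissue markers.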

Additional observations from a re-analysis of the deposited data

Results flagged for a closer look

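Within groups of 4 to 6 libraries, 5 of 80 groups of a member held a library far from the rest, and chance gives about 1 in 20. All 5 were in cortex. Arntl was at 60.4 CPM in WT replicate 5, where the next WT library was at 50.1, and Dbp was at 33.3 CPM in the same library, where the next was at 55.3. Nr1d1 was at 138.1 CPM in WT replicate 1 (next 92.9), Per2 at 52.9 CPM in TDP-43Q331K replicate 4 (next 67.0), and Clock at 152.1 CPM in the combined genotype's replicate 5 (next 168.5).

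A test of the difference itself found 4 differences between effects (edgeR). The effect of the TMEM106B-/- label on Clock in liver differed by 0.96 on the log2 scale between the TDP-43Q331K and WT backgrounds (adjusted p = 0.0464, and 0.00506 to 0.113 over 21 alternatives). Between liver and cortex, the change in the combined genotype against WT differed by 2.61 for Npas2 (adjusted p = 0.000423, and 1.8e-08 to 0.0027 over 41 alternatives) and by -0.92 for Per2 (0.0498, and 0.0253 to 0.126). The change of Clock in TMEM106B-/- against WT differed by -0.53 (0.0358, and 0.00651 to 0.114). The p-values between tissues rest on a single spread per gene for both. For Npas2 (0.46 against 0.64) and Clock (0.144 against 0.151) the SE lay below that of the liver change alone, which makes their p-values too small. For Per2 it lay above (0.29 against 0.23).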

How the results depend on the processing

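Counts of called members are given here under each alternative that moved them. DESeq2 gave 1 (Clock lower) for TMEM106B-/- against WT in liver, 2 for the combined genotype against TMEM106B-/-, 4 for the liver interaction (Arntl and Clock higher, Per3 and Bhlhe41 lower) and 1 for the tissue difference of TDP-43Q331K. Fits of the compared groups alone gave 1 for the combined genotype against WT in liver and 3 against TDP-43Q331K (Bhlhe41 lower, beside Npas2 and Per2). No filter on low counts gave 0 for the combined genotype against TMEM106B-/- in liver, 0 for the tissue difference of TMEM106B-/- and 1 for that of the combined genotype, where RLE size factors and library totals also gave 1. Without the high acute phase livers the combined genotype gave 1 against TDP-43Q331K and 0 against TMEM106B-/-, and the interaction gave 0. Without the cortices with extreme markers the combined genotype against WT gave 1 (Npas2).

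With 1 library left out in turn, the counts ranged from 0 to 1 for TMEM106B-/- against WT in liver, 0 to 2 for the combined genotype against WT and against TDP-43Q331K, 0 to 1 against TMEM106B-/- and for the interaction, 0 to 2 for the tissue difference of TMEM106B-/-, 0 to 1 for that of TDP-43Q331K and 1 to 2 for that of the combined genotype. They were 0 throughout for TDP-43Q331K against WT in liver and for the 6 cortex comparisons.

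Replicate number as a block gave 1 (Per2) for the combined genotype against TDP-43Q331K and 0 for the interaction in liver, and changed no other count of members. The median correlation of deviations was no higher for same-number pairs than for other pairs, at -0.0428 against 0.0190 in liver and -0.0129 against 0.000189 in cortex. Of same-number pairs, 4 of 24 in liver and 2 of 30 in cortex correlated above 0.1, the highest at 0.278 and 0.158. For 6 of 16 livers and 1 of 21 cortices the best correlation was with their own number. No expected count was computed for these. The numbers were not taken as pairing. No called member changed sign under any alternative. Npas2 in liver rests on 1 to 80 counts per library.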

Other observations

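Genes of like pattern are given as a description, by Pearson r of log2 CPM over the libraries of a tissue, which share depth and scaling. The members themselves were left out of these rankings. The 5 non-member genes most like Dbp over the 21 cortices were Mthfd1l (0.803), Ciart (0.776), Tef (0.772), Gm22501 (0.760) and Myh10 (0.758). Ciart is a repressor of the clock and Tef a D-box relative of Dbp. The 5 non-member genes most like Dbp over the 16 livers were Gnal (0.925), Hook2 (0.854), Npc1 (0.846), Nek8 (0.837) and Dixdc1 (0.836), and none is on the clock lists. Npc1 carries cholesterol out of lysosomes.

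The 5 non-member genes most like Arntl in liver were Rgs1 (0.844), H2-D1 (0.831), Cd300ld (0.785), Lrfn3 (0.784) and Leo1 (0.782). In cortex they were Gm47976 (0.823), Pla2g4c (0.798), Chrm2 (0.795), Slc15a2 (0.782) and Gm45338 (0.778). The member Clock, left out here, was at 0.797 with Arntl in liver.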
